A study of Homo sapiens with 10 samples.

Results

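Interferon-stimulated genes were followed by their mRNA in MCF10A cells, a non-transformed human mammary epithelial line, that had been transduced with a vector for activated YAP or for TRAM2. The genes were taken by symbol from a list of 40, which was drawn up with earlier results of these data known. Of these 40 genes 39 were found among the 60168 genes quantified, and OAS1 was not analysed here. The members comprise sensors of foreign RNA, transcription factors, the enzymes of the ubiquitin-like protein ISG15, and proteins that act on the RNA, the entry or the release of viruses.

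Interferons are secreted proteins that cells make when they detect the nucleic acids of a virus. Type I and type III interferons bind receptors at the cell surface, and the kinases JAK1 and TYK2 then phosphorylate STAT proteins, of which STAT2 joins IRF9 in the factor ISGF3. ISGF3 binds the interferon-stimulated response element (ISRE) in the promoters of its target genes, and many of these genes are also transcribed at a low level in cells that have met no interferon.

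The study had 3 groups. MCF10A-YAP5SA cells carried a vector for YAP5SA, a constitutively active form of the transcriptional coactivator YAP, and MCF10A-TRAM2 cells carried a vector for TRAM2, a protein of the translocon in the endoplasmic reticulum. MCF10A-control cells carried an empty vector, whose backbone the paper does not name. The paper gives a backbone with the resistance gene BlastR for YAP5SA and one with Puro for TRAM2. The MCF10A-YAP5SA and MCF10A-TRAM2 groups thus also differed in backbone and resistance gene. The libraries were MCF10A-YAP5SA A and B, MCF10A-TRAM2 A to D and control A to D, all of polyA RNA from transduced cells that had been selected with an antibiotic, and no source states that a line was 1 clone. No interferon was listed among the treatments of these cells.

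Estimated counts per library ranged from 8489854 to 16314438. Of the control libraries, A and C, and B and D, could not be told apart from sampling noise over 2592 genes (chi-square test, p = 0.5815 and 0.1303; chi-square per degree of freedom 0.994 and 1.031), whereas the other control pairs lay at 1.136 to 1.194. The counts of A and C were added up to give 1 sample (control 1), and those of B with D another (control 2), so that 2 MCF10A-YAP5SA, 4 MCF10A-TRAM2 and 2 control samples entered the comparisons. Over all 3704 genes that were whole in libraries B and D, the chi-square test gave p = 0.0208 (1.048 per degree of freedom), slightly more than sampling noise. A fit with every library as a separate sample was made for this reason. The series' design text speaks of 3 biological replicates for each condition, which the 2, 4 and 4 libraries listed do not match, and nothing in the labels ties a library to a separate culture, so p-values measure the spread between these samples, which may be technical. YAP1 mRNA averaged 340 CPM (counts per 1e6 counts) in MCF10A-YAP5SA, 187 CPM in MCF10A-TRAM2 and 187 CPM in control, and TRAM2 mRNA averaged 245, 428 and 28.6 CPM in the same order. In MCF10A-TRAM2 the vector gene ran from 250 to 611 CPM between samples and missed the threshold against control by edgeR (log2 fold change 3.90, adjusted p = 0.0725) and limma, while DESeq2 called it higher. The basal epithelial markers of the line, 10 genes, summed to between 3571 and 3664 CPM in MCF10A-YAP5SA, 5312 and 5855 CPM in MCF10A-TRAM2, and 5832 and 5948 CPM in control. By the call rule given below, 6 of the 10 fell and 2 rose in MCF10A-YAP5SA against control, beside 14.1% and 15.3% of all genes tested.

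The promoters of the members were read first, since the ISRE is what the members are known to share. The ISRE core was searched as GAAANNGAAA on both strands of the RefSeq windows (GRCh38.p14) that run from 250 bases before to 50 bases after a gene's start. Windows were found for 32 of the 39 members. The core lay in 21 of these 32 windows, against 3.65% of all 27305 windows. The stretches below show the match nearest the start site for 3 members that were higher, 3 that were lower and 1 that was not called in MCF10A-YAP5SA. They are written on the gene's strand with every base of a match in capitals, and a match on the opposite strand reads TTTCNNTTTC.
IFITM3 (chr11:320861-320920, minus strand; higher): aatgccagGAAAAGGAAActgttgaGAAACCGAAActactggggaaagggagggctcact
IFI6 (chr1:27672251-27672310, minus strand; higher): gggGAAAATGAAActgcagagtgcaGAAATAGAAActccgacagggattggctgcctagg
IFIT5 (chr10:89414508-89414567, plus strand; higher): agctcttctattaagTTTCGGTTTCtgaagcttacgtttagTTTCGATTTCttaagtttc
IFIH1 (chr2:162318685-162318744, minus strand; lower): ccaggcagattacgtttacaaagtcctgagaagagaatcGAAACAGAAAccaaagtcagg
OAS3 (chr12:112938414-112938473, plus strand; lower): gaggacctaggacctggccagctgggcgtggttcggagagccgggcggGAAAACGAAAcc
ISG20 (chr15:88638922-88638981, plus strand; lower): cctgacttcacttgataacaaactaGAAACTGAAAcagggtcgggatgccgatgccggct
ISG15 (chr1:1013365-1013424, plus strand; not called): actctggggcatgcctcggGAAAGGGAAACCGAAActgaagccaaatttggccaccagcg
In ISG15 the 2 matches overlap by 1 GAAA. The core lay in 3 of 5 windows of members that were higher, 9 of 13 of members that were lower and 6 of 8 of members that were not called. The called members IFITM2, OASL and USP18 had no window. With so few windows, whether the core separates the directions cannot be decided. The gamma-activated site, searched as TTCNNNGAA, lay in 8 of the 32 windows, against 7.88% of all windows, and among the called members it was found for PARP14, IRF1 and IFI35. These matches are letters in a window and not measured binding.

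The first question was how the members differed between MCF10A-YAP5SA and control cells. Of the 39 members 31 passed the filter on low counts. A call required both an adjusted p below 0.05 and a log2 fold change beyond 0.5 in either direction. By this rule 6 members rose (IFITM2, IFITM3, IFI6, SAMD9L, STAT2 and IFIT5), 15 fell (IFI44L, IFI44, OASL, ISG20, IFIH1, HERC5, HERC6, OAS3, SAMD9, USP18, IFI35, DTX3L, IRF1, PARP14 and PARP9) and 10 were not called. Over all 15768 genes tested, 15.3% were called higher and 14.1% lower. The median log2 fold change of the 31 members was −0.52, against −0.01 for all genes tested. The 6 of 31 members that rose lay close to the background of 15.3%, while the 15 of 31 that fell stood beside a background of 14.1%.

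**Figure D1:**
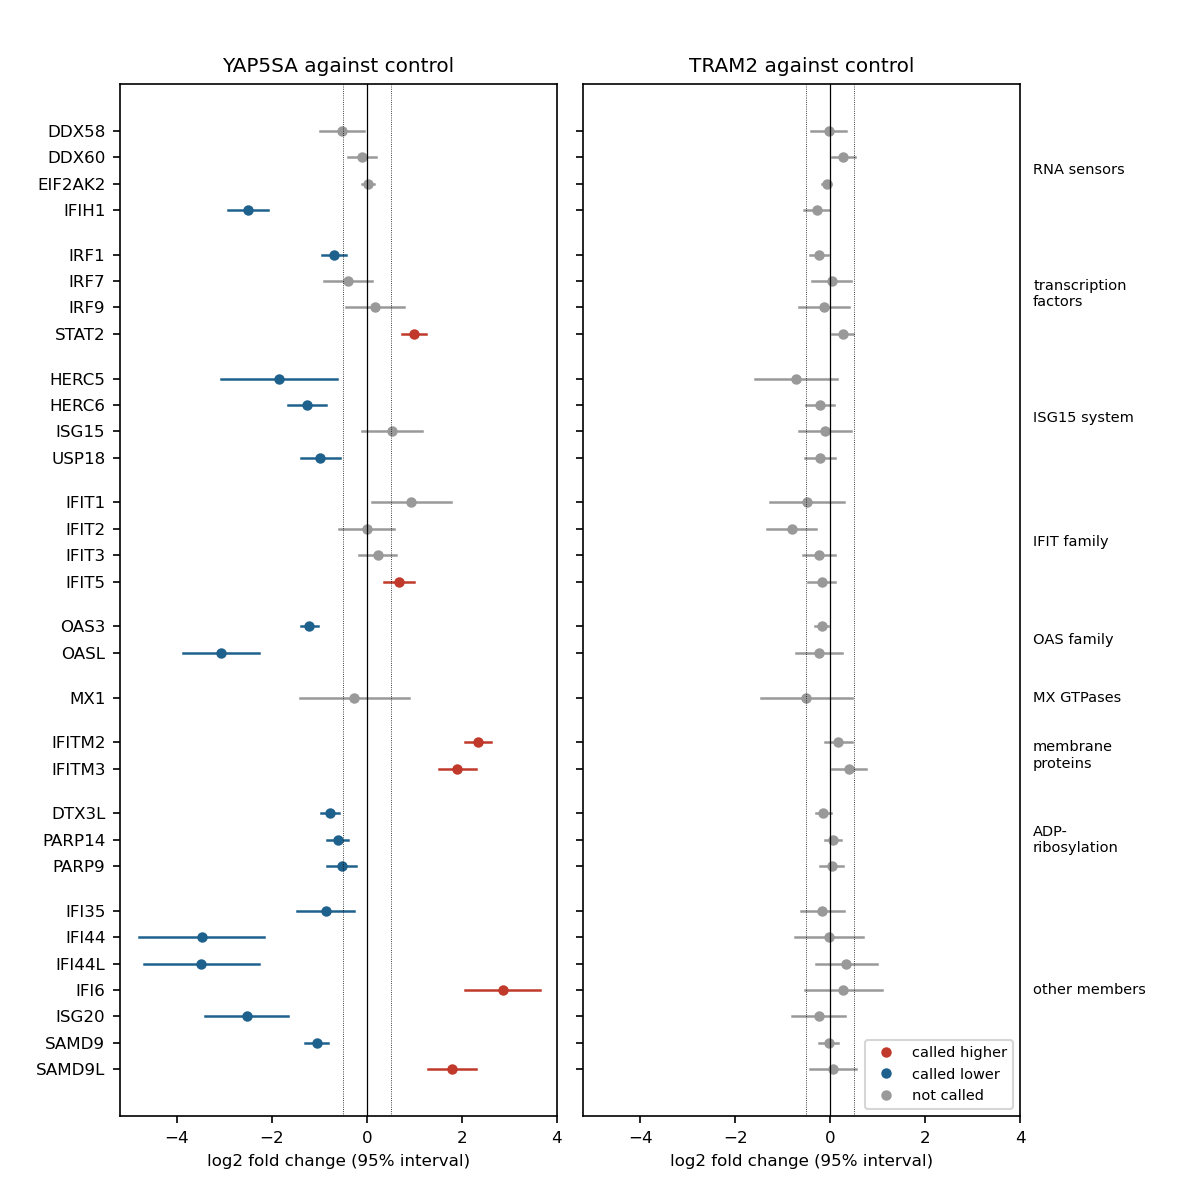
Log2 fold change of each member that passed the filter, with its 95% interval, for YAP5SA against control (left) and TRAM2 against control (right); dotted lines mark the fold threshold of 0.5 in either direction. In the left panel 6 members are called higher and 15 lower, from −3.49 for IFI44L to 2.86 for IFI6, and in the right panel none is called.

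Most members were measured at a low level. The median TPM (a level per transcript length, scaled to a fixed total in each library) of the 39 members was 0.936 TPM in MCF10A-YAP5SA, 1.24 TPM in MCF10A-TRAM2 and 1.38 TPM in control. For the 31 members that passed the filter on low counts it was 1.62, 1.56 and 1.91 TPM in this order, where the median of all genes tested was 6.468, 6.607 and 6.502 TPM. Members at 10 TPM or more numbered 3 in MCF10A-YAP5SA (EIF2AK2, IFITM2 and IFITM3), 4 in MCF10A-TRAM2 and 3 in control (EIF2AK2, IRF1 and SAMD9). In counts, on which long transcripts weigh more, EIF2AK2 and SAMD9 together held 46.1 to 47.2% of the members' sum in MCF10A-YAP5SA, 53.0 to 53.7% in MCF10A-TRAM2 and 53.1% in both control samples. The sum itself was 468 and 470 CPM in MCF10A-YAP5SA, 502 to 541 CPM in MCF10A-TRAM2 and 555 and 532 CPM in control, with both MCF10A-YAP5SA samples below all others. Without EIF2AK2 and SAMD9 the sum was 247 and 253.5 CPM in MCF10A-YAP5SA, 232.7 to 254.3 CPM in MCF10A-TRAM2, and 260.5 and 249.3 CPM in control. These values overlapped between the groups.

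**Figure D2:**
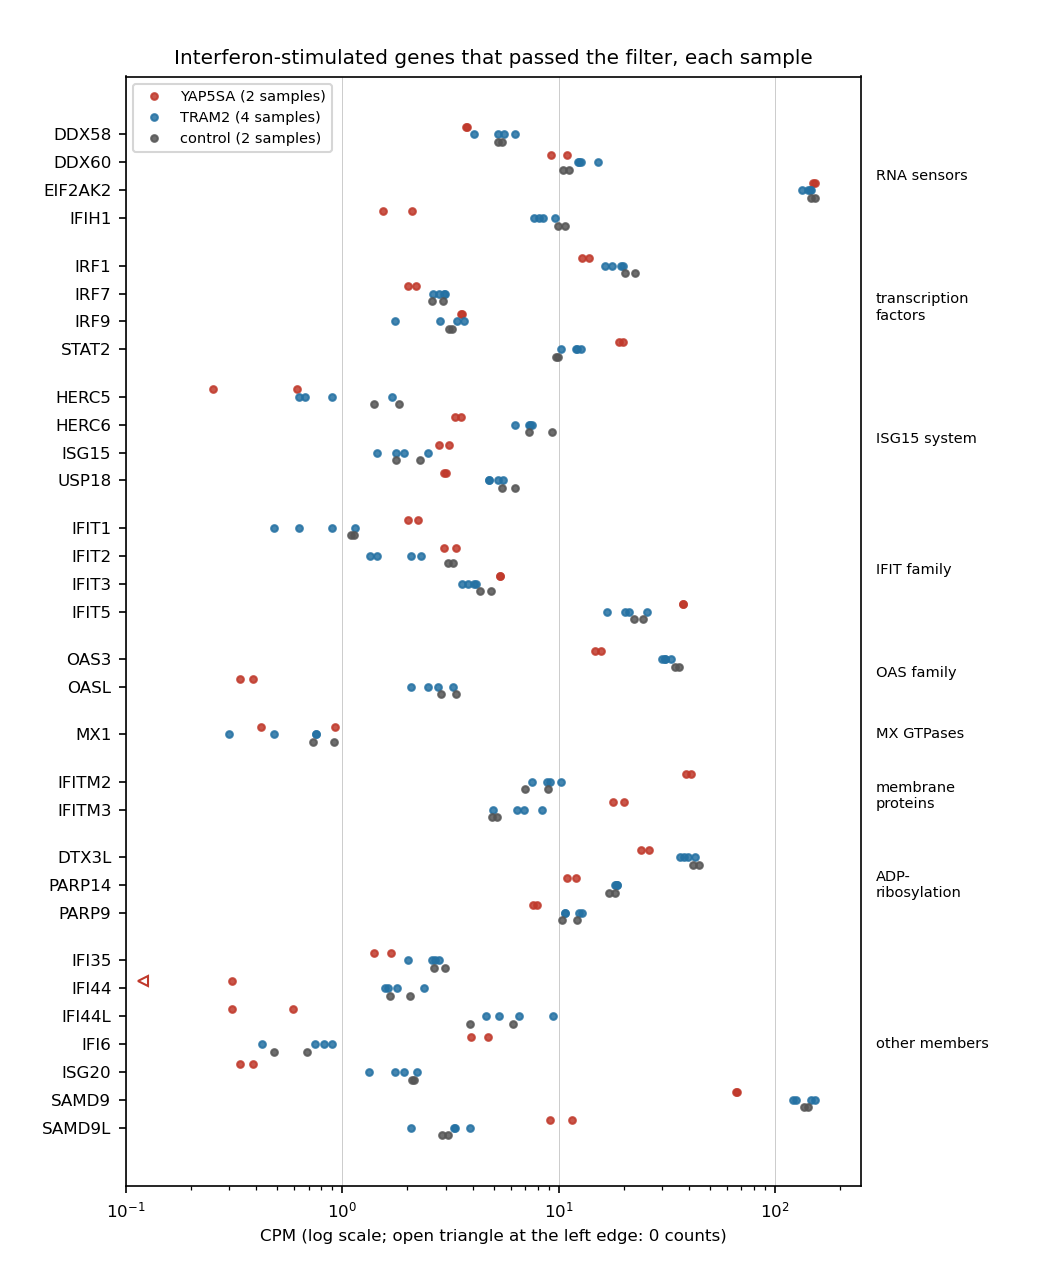
CPM of the 31 members that passed the filter in each of the 8 samples, on a log scale, grouped by role; each point is 1 sample and an open triangle marks 0 counts. IFIH1 has 2.10 and 1.55 CPM in YAP5SA and 9.93 and 10.7 CPM in control, while members with few counts spread more within a group, as HERC5 with 0.631 to 1.70 CPM in TRAM2.

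Among the RNA sensors and RNA-binding enzymes, 1 of 4 members was called in MCF10A-YAP5SA. IFIH1, which encodes MDA5, the helicase that senses long double-stranded RNA, had 2.10 and 1.55 CPM in MCF10A-YAP5SA, 8.49, 8.08, 7.69 and 9.59 CPM in MCF10A-TRAM2, and 9.93 and 10.7 CPM in control. Both MCF10A-YAP5SA samples lay below every other sample (log2 fold change against control −2.50 ± 0.20 (SE), adjusted p = 9.99e-08). In these bulk samples, fewer cells that transcribe a gene and less of its RNA per cell cannot be told apart. DDX58, which encodes RIG-I, the sensor of RNA with a triphosphate end, averaged 3.75 ± 0.05 CPM in MCF10A-YAP5SA, 5.29 ± 0.93 CPM in MCF10A-TRAM2 and 5.38 ± 0.16 CPM in control (SD; n = 2, 4 and 2 samples). Its difference from control missed the threshold (log2 fold change −0.52 ± 0.21, adjusted p = 0.0601) and passed it under 7 of 18 alternatives, as in the fit without MCF10A-TRAM2 B (adjusted p = 0.041) and the fit without MCF10A-TRAM2 C (0.0364). The helicase DDX60 averaged 10.1 ± 1.2 CPM in MCF10A-YAP5SA, 13.2 ± 1.4 CPM in MCF10A-TRAM2 and 10.8 ± 0.51 CPM in control. EIF2AK2, which encodes PKR, the kinase that halts translation on double-stranded RNA, averaged 152 ± 2.5, 142 ± 5.8 and 149.6 ± 4.6 CPM in the same order (log2 fold change 0.03 ± 0.06 in MCF10A-YAP5SA against control, 95% interval −0.09 to 0.14).

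The transcription factors split. STAT2, the subunit of ISGF3 that activates transcription, had 19.0 and 19.9 CPM in MCF10A-YAP5SA, 12.1, 12.1, 10.3 and 12.7 CPM in MCF10A-TRAM2, and 9.70 and 9.91 CPM in control. It rose in MCF10A-YAP5SA (log2 fold change 0.99 ± 0.12, adjusted p = 6.67e-06). Most of its counts in control fell on transcripts that are not annotated as protein coding, and with protein-coding transcripts alone the difference was larger and missed the threshold (log2 fold change 2.06, adjusted p = 0.355). Those transcripts held 4.10 CPM in control 1 and 0 CPM in control 2. IRF1, an early factor that also responds to interferon gamma, had 12.8 and 13.9 CPM in MCF10A-YAP5SA, 17.6, 19.4, 19.8 and 16.4 CPM in MCF10A-TRAM2, and 22.6 and 20.4 CPM in control. It fell in MCF10A-YAP5SA (log2 fold change −0.69 ± 0.11, adjusted p = 0.000168). An antisense gene, IRF1-AS1, overlaps IRF1. The paper describes its RNA libraries as strand-specific, but no source used here says whether reads were counted by strand. IRF9, the DNA-binding subunit of ISGF3, averaged 3.55 ± 0.02, 2.91 ± 0.84 and 3.16 ± 0.06 CPM in MCF10A-YAP5SA, MCF10A-TRAM2 and control, and its 95% interval in MCF10A-YAP5SA against control ran from −0.45 to 0.78. IRF7, the factor that amplifies interferon alpha genes, averaged 2.10 ± 0.12, 2.84 ± 0.17 and 2.76 ± 0.24 CPM in that order (log2 fold change −0.40 ± 0.24, adjusted p = 0.194).

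In the ISG15 system, 3 of the 4 measured members fell, and ISG15 itself was not called. HERC6, known as an ISG15 ligase in mouse, had 3.53 and 3.33 CPM in MCF10A-YAP5SA, 6.26, 7.39, 7.51 and 7.32 CPM in MCF10A-TRAM2, and 7.28 and 9.32 CPM in control (log2 fold change in MCF10A-YAP5SA −1.27 ± 0.19, adjusted p = 5.28e-05). USP18, the protease that removes ISG15 and restrains the type I receptor, had 2.94 and 3.02 CPM in MCF10A-YAP5SA, 4.77, 5.52, 4.78 and 5.24 CPM in MCF10A-TRAM2, and 5.492 and 6.303 CPM in control (−0.98 ± 0.19, adjusted p = 0.000652). For both genes the MCF10A-YAP5SA samples were the lowest. HERC5, the main ISG15 ligase of human cells, had 0.252 and 0.619 CPM in MCF10A-YAP5SA, 0.670, 0.897, 1.70 and 0.631 CPM in MCF10A-TRAM2, and 1.83 and 1.401 CPM in control, from 11, 60 and 66 counts in all. It was called lower (−1.86 ± 0.57, adjusted p = 0.0141), but not without control 1 (adjusted p = 0.0909) or without MCF10A-YAP5SA A (0.132), and without MCF10A-YAP5SA B its log2 fold change was −2.64. ISG15 averaged 2.95 ± 0.23 CPM in MCF10A-YAP5SA, 1.91 ± 0.43 CPM in MCF10A-TRAM2 and 2.03 ± 0.36 CPM in control (0.53 ± 0.29, adjusted p = 0.155). UBE2L6, the conjugating enzyme for ISG15, failed the filter with 8 counts in MCF10A-YAP5SA, 8 counts in MCF10A-TRAM2 and 11 counts in control.

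Of the IFIT family, cytosolic proteins that bind foreign RNA, 1 of 4 rose in MCF10A-YAP5SA and none fell. IFIT5, which binds RNA with a triphosphate end, had 37.6 and 37.6 CPM in MCF10A-YAP5SA, 25.6, 20.2, 16.7 and 21.2 CPM in MCF10A-TRAM2, and 24.5 and 22.4 CPM in control. It rose in MCF10A-YAP5SA (log2 fold change 0.68 ± 0.14, adjusted p = 0.00232). IFIT1, which binds RNA that lacks cap methylation, had 2.02 and 2.25 CPM in MCF10A-YAP5SA, 0.894, 0.483, 1.15 and 0.631 CPM in MCF10A-TRAM2, and 1.10 and 1.13 CPM in control. Its MCF10A-YAP5SA samples were above all others, yet the difference from control missed the threshold (0.93 ± 0.39, adjusted p = 0.0603), while the difference from MCF10A-TRAM2 passed it (1.42 ± 0.35, adjusted p = 0.00344). In the fit without MCF10A-TRAM2 B, IFIT1 was called against control as well (adjusted p = 0.0385). IFIT2, a partner of IFIT1, had 3.36 and 2.94 CPM in MCF10A-YAP5SA, 1.34, 2.07, 2.30 and 1.45 CPM in MCF10A-TRAM2, and 3.25 and 3.07 CPM in control. Its MCF10A-YAP5SA and control samples overlapped, and the 4 MCF10A-TRAM2 samples lay below both (0.80 ± 0.25 in MCF10A-YAP5SA against MCF10A-TRAM2, adjusted p = 0.0161, and 0.117 without MCF10A-YAP5SA A). IFIT3, another partner, averaged 5.36 ± 0.03, 3.90 ± 0.26 and 4.58 ± 0.38 CPM in MCF10A-YAP5SA, MCF10A-TRAM2 and control and was not called. The 4 IFIT genes lie on chromosome 10, where LIPA on the opposite strand overlaps IFIT1, IFIT2 and IFIT3.

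Both measured members of the OAS family fell. OAS3, an enzyme that makes the 2'-5' oligoadenylates which activate RNase L, had 15.6 and 14.8 CPM in MCF10A-YAP5SA, 30.9, 31.1, 33.1 and 30.0 CPM in MCF10A-TRAM2, and 35.9 and 34.6 CPM in control. It fell in MCF10A-YAP5SA (log2 fold change −1.21 ± 0.09, adjusted p = 2.99e-08). OASL, a relative that lacks that activity and enhances RIG-I signalling, had 0.336 and 0.387 CPM in MCF10A-YAP5SA, 2.76, 3.25, 2.48 and 2.08 CPM in MCF10A-TRAM2, and 3.34 and 2.86 CPM in control. It rested on 9 counts in the 2 MCF10A-YAP5SA samples, against 158 in MCF10A-TRAM2 and 126 in control (−3.07 ± 0.37, adjusted p = 9.37e-06). OAS2 failed the filter with 0, 6 and 4 counts in MCF10A-YAP5SA, MCF10A-TRAM2 and control. The MX GTPases, which trap viral ribonucleoproteins, had few counts. MX1 averaged 0.675 ± 0.36, 0.575 ± 0.23 and 0.824 ± 0.13 CPM in these groups with no call, and MX2 had 4, 7 and 6 counts.

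The membrane proteins that block virus entry showed the smallest adjusted p of the members that rose. IFITM2, which acts in endosomes, had 38.9 and 41.0 CPM in MCF10A-YAP5SA, 9.09, 10.2, 7.57 and 8.84 CPM in MCF10A-TRAM2, and 6.96 and 8.94 CPM in control. Its log2 fold change in MCF10A-YAP5SA was 2.34 ± 0.13 (adjusted p = 2.50e-09). IFITM3, the endosomal protein that restricts influenza virus, had 17.8 and 20.1 CPM in MCF10A-YAP5SA, 4.99, 8.35, 6.90 and 6.44 CPM in MCF10A-TRAM2, and 4.94 and 5.17 CPM in control (1.91 ± 0.18, adjusted p = 5.78e-07). The 2 genes are near-identical in much of their coding sequence, so the split of reads between them is uncertain. Their summed CPM was 56.7 and 61.1 in MCF10A-YAP5SA, 14.1, 18.6, 14.5 and 15.3 in MCF10A-TRAM2, and 11.9 and 14.1 in control, 4.53 times as high in MCF10A-YAP5SA as in control. IFITM1, their neighbour, had 8 counts in MCF10A-YAP5SA, 1 count in MCF10A-TRAM2 and 1 count in control, and it failed the filter. The ratio of IFITM1 in MCF10A-YAP5SA over control was 13.03, with an interval of 1.75 to 578 that covers counting error only. BST2, which tethers budding virus, had 0, 2 and 0 counts, and RSAD2, which encodes viperin, had 2, 16 and 13 counts in MCF10A-YAP5SA, MCF10A-TRAM2 and control (0.251 of the control level in MCF10A-YAP5SA, counting interval 0.0275 to 1.11).

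The 3 members of the ADP-ribosylation complex fell together and by less. DTX3L, the ubiquitin ligase of the complex, had 24.1 and 26.1 CPM in MCF10A-YAP5SA, 39.6, 42.7, 38.2 and 36.6 CPM in MCF10A-TRAM2, and 44.5 and 41.8 CPM in control (log2 fold change in MCF10A-YAP5SA −0.78 ± 0.09, adjusted p = 3.84e-06). PARP9, its partner, had 7.65 and 7.97 CPM in MCF10A-YAP5SA, 12.9, 12.4, 10.7 and 10.7 CPM in MCF10A-TRAM2, and 12.2 and 10.4 CPM in control. The call of PARP9 (−0.53 ± 0.14, adjusted p = 0.00693) lay just past the fold threshold and was lost without control 1 (−0.40, adjusted p = 0.0914) and without MCF10A-YAP5SA A (−0.49, adjusted p = 0.0573). PARP14, a mono-ADP-ribosyltransferase, had 12.0 and 11.0 CPM in MCF10A-YAP5SA, 18.6, 18.2, 18.4 and 18.7 CPM in MCF10A-TRAM2, and 18.2 and 17.1 CPM in control (−0.62 ± 0.10, adjusted p = 0.00013), a call that limma on log2(TPM + 1) did not make (−0.32, adjusted p = 0.243). For all 3 genes the MCF10A-YAP5SA samples were the lowest. PARP9 and DTX3L lie on opposite strands and overlap by 240 bases (chromosome 3, GRCh37). Reads in the overlap could be split either way unless they were counted by strand.

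The members with other roles held the largest changes in both directions. IFI6, a small protein of mitochondria and the endoplasmic reticulum that limits cell death and flavivirus replication, had 3.95 and 4.72 CPM in MCF10A-YAP5SA, 0.745, 0.897, 0.424 and 0.821 CPM in MCF10A-TRAM2, and 0.687 and 0.485 CPM in control. It was 7.26-fold higher in MCF10A-YAP5SA than in control (log2 fold change 2.86 ± 0.37, adjusted p = 1.50e-05). IFI44L had 0.589 and 0.310 CPM in MCF10A-YAP5SA, 9.39, 6.56, 5.33 and 4.61 CPM in MCF10A-TRAM2, and 6.18 and 3.88 CPM in control. IFI44, the gene beside it, had 0 and 0.310 CPM in MCF10A-YAP5SA, 2.38, 1.80, 1.64 and 1.58 CPM in MCF10A-TRAM2, and 2.06 and 1.67 CPM in control. Both fell in MCF10A-YAP5SA (IFI44L −3.49 ± 0.54, adjusted p = 0.000347; IFI44 −3.48 ± 0.61, adjusted p = 0.000283), from 11 and 4 counts there. IFI44 had all of its 4 counts in MCF10A-YAP5SA B, and its log2 fold change was −2.56 without MCF10A-YAP5SA A, which had none, and −7.92 without MCF10A-YAP5SA B, where the remaining 0 counts leave the value to the fit's prior count. The call of IFI44 was lost with protein-coding transcripts alone (−3.32, adjusted p = 0.169). ISG20, a 3' to 5' exonuclease, had 0.336 and 0.387 CPM in MCF10A-YAP5SA, 1.94, 2.21, 1.76 and 1.33 CPM in MCF10A-TRAM2, and 2.11 and 2.16 CPM in control (−2.53 ± 0.41, adjusted p = 0.000126). IFI35, which forms a complex with NMI, had 1.68 and 1.39 CPM in MCF10A-YAP5SA, 2.68, 2.002, 2.79 and 2.59 CPM in MCF10A-TRAM2, and 2.98 and 2.64 CPM in control. Its call (−0.87 ± 0.28, adjusted p = 0.0174) was lost without control 1 (adjusted p = 0.103), without MCF10A-YAP5SA B (0.121) and with protein-coding transcripts alone (−0.29, adjusted p = 0.75).

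SAMD9 and SAMD9L, sensors that arrest translation and are 12032 bases apart on chromosome 7 in the same orientation, moved in opposite directions. SAMD9 had 67.1 and 66.1 CPM in MCF10A-YAP5SA, 147, 152, 122 and 125 CPM in MCF10A-TRAM2, and 142 and 136 CPM in control (log2 fold change in MCF10A-YAP5SA −1.06 ± 0.11, adjusted p = 2.34e-05). SAMD9L had 9.17 and 11.5 CPM in MCF10A-YAP5SA, 3.87, 3.31, 3.27 and 2.08 CPM in MCF10A-TRAM2, and 2.88 and 3.07 CPM in control (1.80 ± 0.23, adjusted p = 1.77e-05), but limma on log2(TPM + 1) did not call it (0.79, adjusted p = 0.0794). Neither gene overlapped between MCF10A-YAP5SA and the other samples, and their summed CPM in MCF10A-YAP5SA was 0.543 of that in control. The other near neighbours that were both called moved the same way: IFI44L and IFI44 (3650 bases apart, both lower), HERC6 and HERC5 (14020 bases apart, both lower), PARP9 and DTX3L (both lower), and IFITM2 and IFITM3 (both higher).

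**Figure D3:**
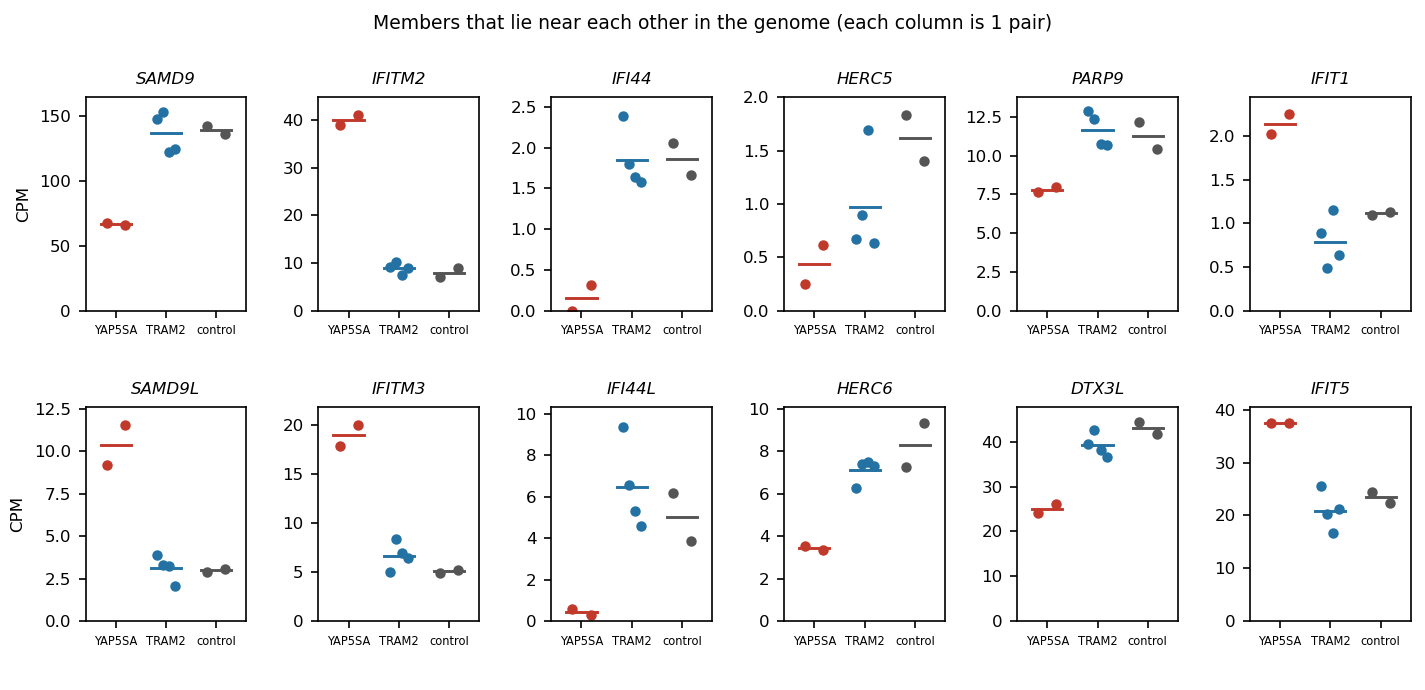
CPM of 6 pairs of members that lie near each other in the genome, 1 pair in each column; points are samples and bars are group means, on axes that start at 0. SAMD9 is lower and SAMD9L higher in YAP5SA than in control, while both genes of the IFITM pair are higher and both genes of the IFI44, HERC and PARP9 pairs lower.

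Members that failed the filter are given by their counts. Besides those named above, IFI27, a mitochondrial protein that serves as a marker of interferon in blood, had 5 counts in MCF10A-YAP5SA, 19 counts in MCF10A-TRAM2 and 20 counts in control (ratio of MCF10A-YAP5SA over control 0.407, counting interval 0.119 to 1.12). XAF1, a pro-apoptotic protein, had 8, 10 and 2 counts, with a ratio of MCF10A-YAP5SA over control of 6.52 (1.3 to 63.0). With so few counts, differences of MX2, OAS2, BST2, RSAD2 and UBE2L6 between MCF10A-YAP5SA and control were not detectable at this depth.

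The second question was whether the TRAM2 vector alone moved these genes. None of the 31 members was called in MCF10A-TRAM2 against control by edgeR, and 7 had an unadjusted p under 0.05 (IFIT2, OAS3, IRF1, STAT2, DDX60, IFITM3 and IFIH1). Of all 15768 genes tested, 1994 had an unadjusted p under 0.05 by edgeR. DESeq2 and limma called none either, and by them 1 and 2 members had an unadjusted p under 0.05. Neither edgeR nor limma called the vector gene TRAM2 itself in this comparison (log2 fold change 3.90, adjusted p = 0.0725 by edgeR). Over all genes tested, 0.0571% were called in this comparison, so that a count of 0 was also the background. The smallest p belonged to IFIT2, whose samples are given above (log2 fold change −0.81 ± 0.24, adjusted p = 0.175). With the 10 libraries as separate samples IFIT2 was called lower (adjusted p = 0.0456). The estimates of the members lay between −0.81 for IFIT2 and 0.40 for IFITM3, and the median was −0.13, against −0.0008 for all genes. The intervals leave room for changes of some members: that of IFITM3 ran from 0.04 to 0.77 and that of HERC5 from −1.59 to 0.16.

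MCF10A-YAP5SA and MCF10A-TRAM2 were then compared directly, with all members' values as given above. By edgeR 8 of the 31 members were higher in MCF10A-YAP5SA and 13 lower, beside 14.9% and 14.6% of all genes. The 8 were the 6 that were higher than in control together with IFIT1 and IFIT2. The 13 were those lower than in control other than HERC5 and IRF1. IRF1 had a log2 fold change of −0.46 ± 0.11 in this comparison (adjusted p = 0.00224), short of the fold threshold, and HERC5 one of −1.14 ± 0.55 (adjusted p = 0.099). Limma on log2(TPM + 1) did not call HERC6 here (−0.03, adjusted p = 0.866), nor DTX3L, PARP14, PARP9, USP18, STAT2, IFIT1 and IFIT2. DESeq2 did not call IFI35 and IFIT2. By edgeR on protein-coding transcripts alone the calls of IFI35, IFI44 (adjusted p = 0.218) and STAT2 (0.511) were lost. The call of IFI35 here (−0.71 ± 0.26, adjusted p = 0.0309) was lost without MCF10A-TRAM2 A, C or D or either MCF10A-YAP5SA sample (adjusted p from 0.0516 to 0.197). ISG15 passed without MCF10A-TRAM2 B (0.78, adjusted p = 0.0193), DDX58 without MCF10A-TRAM2 C (−0.61, adjusted p = 0.0131), and IRF1 without MCF10A-TRAM2 D (−0.51) or MCF10A-YAP5SA B (−0.52). Both comparisons use the same MCF10A-YAP5SA samples, so they do not support each other independently.

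The genes that make, receive and relay interferon were looked at beside the members. The ligands were almost absent: of 12 interferon genes 10 had no count in any sample, and the 12 held 24 counts in all. IFNK, an interferon of keratinocytes, had 3 and 2 counts in MCF10A-YAP5SA A and B and none in the other samples, and IFNE had 0.123, 0.131 and 0.195 CPM in MCF10A-YAP5SA, MCF10A-TRAM2 and control. Of the 6 receptor genes none was called in MCF10A-YAP5SA against control by edgeR, DESeq2 or limma (1 with an unadjusted p under 0.05 by edgeR). IFNGR2, a subunit of the interferon gamma receptor, averaged 44.9, 52.0 and 48.0 CPM and IFNAR1, a subunit of the type I receptor, 44.2, 43.9 and 42.9 CPM in MCF10A-YAP5SA, MCF10A-TRAM2 and control.

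Of the 9 signal transducers and restraining proteins, 2 rose and 2 fell in MCF10A-YAP5SA, where 15.3% of all genes tested were called higher and 14.1% lower. SOCS1 and SOCS3 are feedback inhibitors of JAK kinases, and they moved apart. SOCS3 had 7.82 and 8.52 CPM in MCF10A-YAP5SA, 2.68, 3.18, 2.85 and 2.59 CPM in MCF10A-TRAM2, and 2.43 and 2.59 CPM in control (log2 fold change in MCF10A-YAP5SA 1.70, adjusted p = 4.09e-06). SOCS1 had 1.09 and 1.16 CPM in MCF10A-YAP5SA, 3.73, 4.49, 3.88 and 3.47 CPM in MCF10A-TRAM2, and 4.35 and 5.01 CPM in control (−2.04, adjusted p = 1.02e-05). The kinase JAK2 rose (1.13, adjusted p = 5.90e-06) and the phosphatase PTPN6 fell (−0.94, adjusted p = 0.000121). JAK1 (0.42), which signalling to ISGF3 requires, did not pass the fold threshold.

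Of the 11 measured genes of the sensing pathway upstream of interferon, 5 fell in MCF10A-YAP5SA and none rose, against 14.1% lower and 15.3% higher over all genes. The adaptor MAVS, which relays signals from RIG-I and MDA5, had 95.3 and 95.6 CPM in MCF10A-YAP5SA, 144, 137, 155 and 159 CPM in MCF10A-TRAM2, and 142 and 149 CPM in control (log2 fold change in MCF10A-YAP5SA −0.61, adjusted p = 4.38e-06). TMEM173, which encodes STING, had 8.75 and 7.74 CPM in MCF10A-YAP5SA, 22.6, 20.02, 18.9 and 18.2 CPM in MCF10A-TRAM2, and 18.6 and 17.2 CPM in control (−1.12, adjusted p = 5.66e-06). CGAS, the DNA sensor before STING (−0.72), and IRF3, the factor after it (−0.60), also fell, as did the endosomal RNA receptor TLR3 (−2.07). IRF2 and IRF5, other interferon regulatory factors, and the IRF2-binding proteins IRF2BP1 and IRF2BP2 were not called. IRF2BP2 missed only the fold threshold (means of 53.9 CPM in MCF10A-YAP5SA and 75.05 CPM in control, −0.48, adjusted p = 1.85e-05).

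Of 22 other interferon-inducible genes, 3 rose and 5 fell in MCF10A-YAP5SA, beside the same 15.3% and 14.1% of all genes. SP110, a nuclear body protein, had 109.7 and 106.5 CPM in MCF10A-YAP5SA, 21.2, 26.9, 19.98 and 19.6 CPM in MCF10A-TRAM2, and 25.1 and 24.3 CPM in control (log2 fold change in MCF10A-YAP5SA 2.13, adjusted p = 1.21e-08). APOL6 had 16.7 and 16.6 CPM in MCF10A-YAP5SA, 65.4, 78.6, 74.2 and 69.6 CPM in MCF10A-TRAM2, and 71.9 and 73.4 CPM in control (−2.13, adjusted p = 1.50e-10). IFI16, a DNA sensor of the nucleus (−0.87), and NMI, the partner of IFI35 (−0.92), fell as well, and GBP3, a guanylate-binding protein, rose (0.87). The transducers and the other inducible genes held calls in both directions, as did all genes tested, while the calls of the sensing pathway were all lower.

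**Figure D4:**
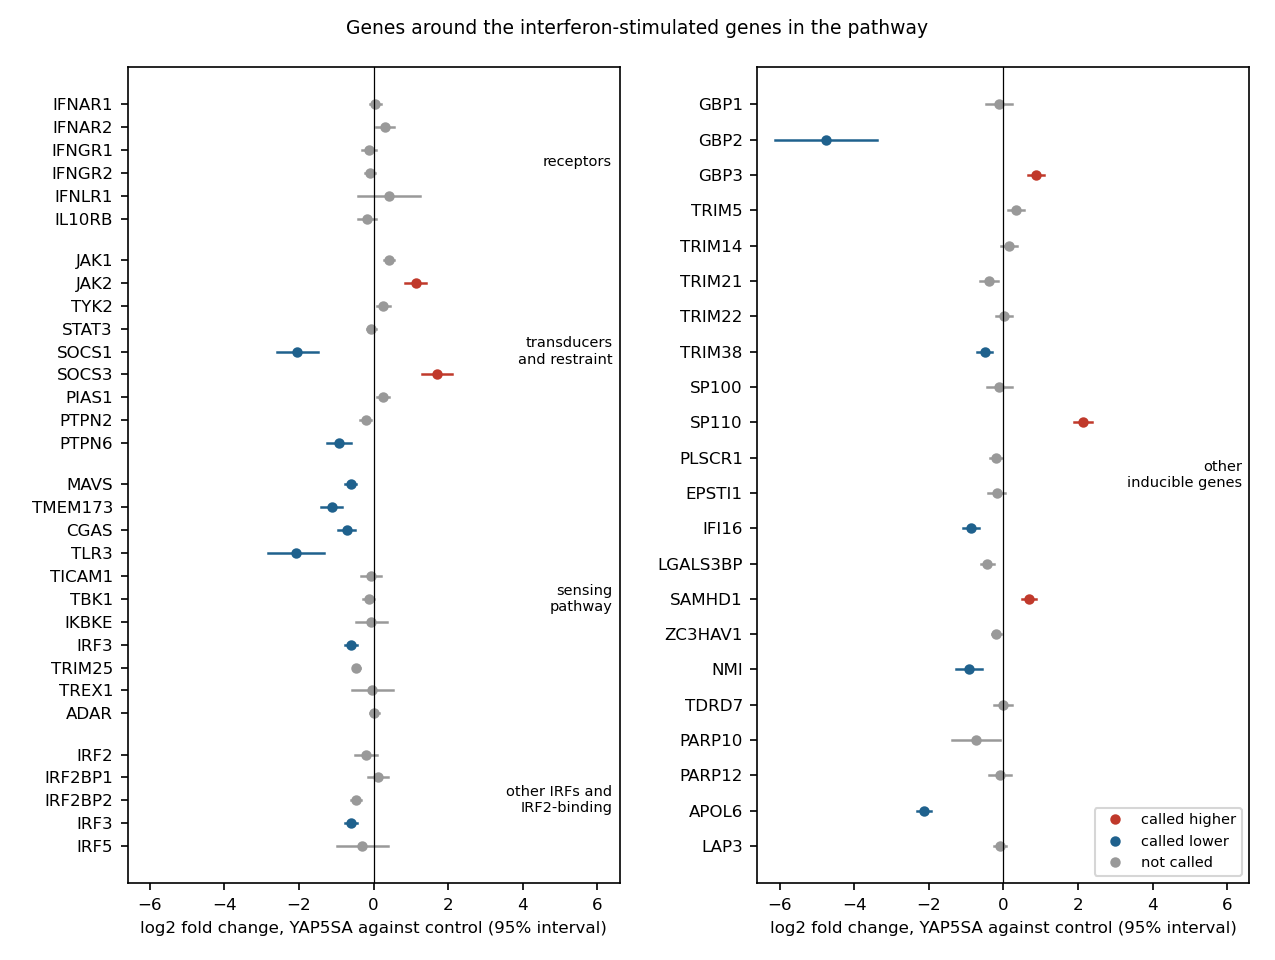
Log2 fold change in YAP5SA against control, with 95% intervals, of the tested genes around the members: receptors, transducers and restraining proteins, the sensing pathway and other interferon regulatory factors with the IRF2-binding proteins (left; IRF3 stands in 2 groups), and other interferon-inducible genes (right). None of the 6 receptors is called, SOCS3 (1.70) and SOCS1 (−2.04) lie on opposite sides, and SP110 (2.13) and APOL6 (−2.13) are the highest and the next to lowest of the right panel, where GBP2 is lowest.

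Markers of cells that could carry high levels of interferon-stimulated genes were read as well. The 7 leukocyte markers summed to between 62.3 and 64.3 CPM in MCF10A-YAP5SA, 19.7 and 23.4 CPM in MCF10A-TRAM2, and 24.6 and 26.6 CPM in control. Nearly all of this sum was the integrin gene ITGB2, which was called higher (means of 63.0, 18.4 and 22.5 CPM). The monocyte gene CD14 (0.158, 2.24 and 2.10 CPM) and LAPTM5 (0.0387, 1.465 and 0.847 CPM) were called lower in MCF10A-YAP5SA than in control (adjusted p = 3.03e-05 and 0.000437), CD53 and CD3E had no count in any sample and PTPRC, the defining leukocyte gene, stayed at 0.123, 0.0654 and 0.0956 CPM. Of the plasmacytoid dendritic cell markers, LILRA4 and IL3RA had no count in any sample and CLEC4C had 1, and TCF4, a transcription factor found in many cell types, was called lower (means of 2.47, 3.80 and 4.599 CPM, log2 fold change against control −0.90, adjusted p = 0.0104). The part of these markers in the results was not tested.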

How the data were processed

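PolyA RNA was sequenced from MCF10A cells with a YAP5SA vector (2 libraries), a TRAM2 vector (4) or an empty vector (4). The submitters' processing notes name cutadapt and Salmon. Their versions, the build, the annotation and the use of strand in counting were not given in the sources used here. Per library and transcript (226030 in all), the authors deposited an estimated count (expected reads, not always whole) and a TPM value. Deposited estimated counts were summed per gene and rounded. Libraries of a group were set against each other in a chi-square test (genes averaging 50 counts or more and within 0.001 of whole numbers throughout the group), and by it 2 pairs of control libraries were merged. Genes were filtered with filterByExpr, TMM-normalized and tested in edgeR 4.0.16 (quasi-likelihood, robust) in R 4.3.3, all 8 samples in 1 fit, with no block and Benjamini-Hochberg adjustment over 15768 genes. Calls needed an adjusted p below 0.05 and a log2 fold change beyond 0.5 either way. Alternatives used DESeq2 1.42.0 and limma 3.58.1, with limma run on log2(TPM + 1), a pseudocount of 1. Steps were tested on simulated data. CPM values use TMM library sizes, errors are SD or SE as stated, and intervals are at 95%; count intervals are exact and cover counting error only. Gene positions are from GENCODE on GRCh37, by gene ID.

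The 40 members and the other lists were chosen with earlier results of these data known. Every member is accounted for: called members by each sample, the others by means or counts; of each other list, up to 4 called genes with the smallest adjusted p, or the 2 with the highest CPM, could be named. JAK1, TLR3, NMI and GBP2 were named outside that rule, after their values were seen. Also outside it are the uncalled IRF2, IRF5, IRF2BP1 and IRF2BP2, and the uncalled markers of leukocytes and plasmacytoid dendritic cells. Some genes of the other lists are not reported here.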

Additional observations from a re-analysis of the deposited data

Results flagged for a closer look

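In the group of 4 MCF10A-TRAM2 samples, 2 of the 31 members tested had a sample far from the other 3. DDX60 stood at 15.3 CPM in MCF10A-TRAM2 B, against 12.3 to 12.7 CPM in the other 3. HERC6 stood at 6.26 CPM in MCF10A-TRAM2 A, against 7.32 to 7.51 CPM in the other 3. Chance flags about 1 in 20 groups, which is 1.55 of 31 members, and neither sample changed a call of these genes against control.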

How the results depend on the processing

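Of the 21 members called in MCF10A-YAP5SA against control, 21 kept their direction under all 18 alternatives and 14 their call; the exceptions were STAT2, IFI35, IFI44, HERC5, SAMD9L, PARP9 and PARP14. The count of members higher ranged from 6 to 7 and of members lower from 12 to 16 when each sample was left out in turn, and all genes called from 4211 to 4735. In MCF10A-YAP5SA against MCF10A-TRAM2 these ranges were 7 to 9, 12 to 13 and 4184 to 4758, and in MCF10A-TRAM2 against control 0 to 0, 0 to 0 and 3 (without control 2) to 39 (without MCF10A-TRAM2 B). With the adjusted p alone, 7680 genes were called in MCF10A-YAP5SA against control, 8078 against MCF10A-TRAM2 and 23 in MCF10A-TRAM2 against control. On log2(TPM + 1) with limma, 5 members were higher and 8 lower in MCF10A-YAP5SA against MCF10A-TRAM2, and the cause was not tested. The 9 genes called in MCF10A-TRAM2 against control became 67 (and 1 member lower, IFIT2) with 10 separate libraries, 19 with DESeq2, 136 with no filter on low counts, 25 with libraries A and B alone, 97 with libraries C and D alone, 1 with limma and 4 with protein-coding transcripts alone, an alternative added after seeing the data; the cause was not tested. Between samples of the same letter, deviations from group means had correlations of 0.022 to 0.051, with control 1 taken as A and control 2 as B. Each control sample joined libraries of different letters, and MCF10A-TRAM2 C and D were not compared. The check therefore cannot decide whether letters pair the samples. With the letter as a replicate block, 40 genes were called in MCF10A-TRAM2 against control, and 6 members were higher and 16 lower in MCF10A-YAP5SA against control, DDX58 joining those that were lower.

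Signs changed for uncalled members close to 0 in MCF10A-YAP5SA against control. IFIT2 turned to 0.00389 with DESeq2, 0.00286 with RLE factors and 0.0691 with libraries A and B alone, and ranged from −0.0932 to 0.0949 when each sample was left out in turn. EIF2AK2 turned to −0.0225 with no filter, −0.0377 with limma and −0.00702 with protein-coding transcripts alone, and IRF9 to −0.0384 with limma. MX1 ranged from −0.947 to 0.188 and DDX60 from −0.221 to 0.0208 over the fits without 1 sample. Depth limits the members under about 1 CPM: 8 failed the filter, and 4 to 11 counts in MCF10A-YAP5SA carry IFI44, OASL, ISG20, IFI44L and HERC5.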

Other observations

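The transcripts behind some members were not those that code for the protein. Of the STAT2 counts, 46.6%, 34.5% and 22.6% in MCF10A-YAP5SA, MCF10A-TRAM2 and control were assigned to transcripts annotated as protein coding. This share varied within groups: protein-coding STAT2 transcripts held 6.08 and 11.8 CPM in MCF10A-YAP5SA, 0, 6.75, 6.87 and 2.09 CPM in MCF10A-TRAM2, and 4.10 and 0 CPM in control, while the gene as a whole was steady within each group. IFI44L had 24.8%, 78.7% and 80.2% of its counts on protein-coding transcripts in these groups, the first from 11 counts. ISG20 had 40.5%, 77.2% and 79.7% in the same order. In both genes the estimated fall in MCF10A-YAP5SA was larger with protein-coding transcripts alone (log2 fold change −4.98 for IFI44L and −3.34 for ISG20). In MCF10A-YAP5SA A and B those transcripts held only 0.229 and 0 CPM for IFI44L, and 0.0841 and 0.205 CPM for ISG20. At this level the size of the difference is uncertain. IFITM2, IFITM3, IFI6, SAMD9, OAS3 and DTX3L had 94.3% or more of their counts on protein-coding transcripts in every group.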
